A study of Plutella xylostella with 6 samples.

Results

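The baseline described here is the transcriptome of untreated second-instar larvae of the diamondback moth Plutella xylostella, measured by RNA-seq of whole bodies. Its members are the 3 control libraries of an experiment with 6 libraries, and they were chosen by the group named in the sample titles. The other 3 libraries came from larvae exposed for 12 hr to DMNT, a volatile homoterpene of plants, and served here only for a comparison of spread. The controls were labelled with the same 12 hr time point. In the study's feeding assays control larvae received paraffin oil, the solvent of DMNT. Whether the sequenced control larvae did so is not stated in the labels or the methods, nor is the number or the age within the instar of the larvae in a library, or whether libraries came from separate cultures. The spread between libraries may therefore be technical in part, and each library averages every tissue of the animal, so that fewer cells of a type and less RNA per cell cannot be told apart.

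The diamondback moth feeds on plants of the cabbage family, and its larvae eat almost without pause between moults. A feeding caterpillar is mainly a midgut that secretes proteases into an alkaline lumen, a body wall musculature, a fat body that stores protein and lipid, a pair of silk glands, and an epidermis that builds and sheds the cuticle. Moulting is paced by pulses of ecdysone, which switch on a cascade of nuclear receptors, and cuticle proteins are made in a stage-specific order around each moult.

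The table held 21946 rows, each an annotated or assembled gene model with a read count and an FPKM, a fragment count scaled by exon length and by the mapped reads of the library. The count totals were 56381123, 49553028 and 53402714 for controls 1, 2 and 3. A count of 0 allows up to 3 counts, or 0.0532, 0.0605 and 0.0562 CPM (the count scaled to a common library total) in these libraries, for counting error only. Of the rows, 18588 had at least 10 counts in each control and 676 had none in any control. By mean FPKM over the controls 15921 rows reached 1, 5326 reached 10, 794 reached 100 and 144 reached 1000. No pair of control libraries was a copy of another, since the mean chi-square per row was 67.0 to 127 and drawing one library again would give about 1.

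Reads were concentrated on few genes. The 144 rows with a mean FPKM of at least 1000 held 46.2% of all control counts, and the 794 rows with at least 100 held 69.3%. The 10 rows with the highest mean FPKM took 12.0%, 10.3% and 12.1% of the counts of controls 1, 2 and 3 (11.5% ± 1.01, SD, n = 3). Counted from the most abundant row of each library downwards, 158, 182 and 136 rows made up 50% of the counts, and 3645, 3768 and 3373 rows made up 90%. Control 2 had the flattest distribution and control 3 the steepest.

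The 20 most abundant rows encoded ribosomal proteins (8 rows), muscle proteins (5), respiratory subunits of the mitochondrial genome (4), elongation factor 1-alpha, a trypsin and a row without a description that carries the symbol ND1. Highest were the messages of cytochrome c oxidase, the enzyme that passes electrons to oxygen. COX3, its subunit III, had an FPKM of 24309, 18012 and 21129 in controls 1, 2 and 3, and COX1, its catalytic subunit I, had 22966, 19542 and 20633. For both the lowest of the libraries was control 2. COX2, which receives electrons from cytochrome c, was lower, at 7302, 6065 and 6866, and CYTB, the cytochrome b of complex III, stood at 6243, 5247 and 6047.

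**Figure D1:**
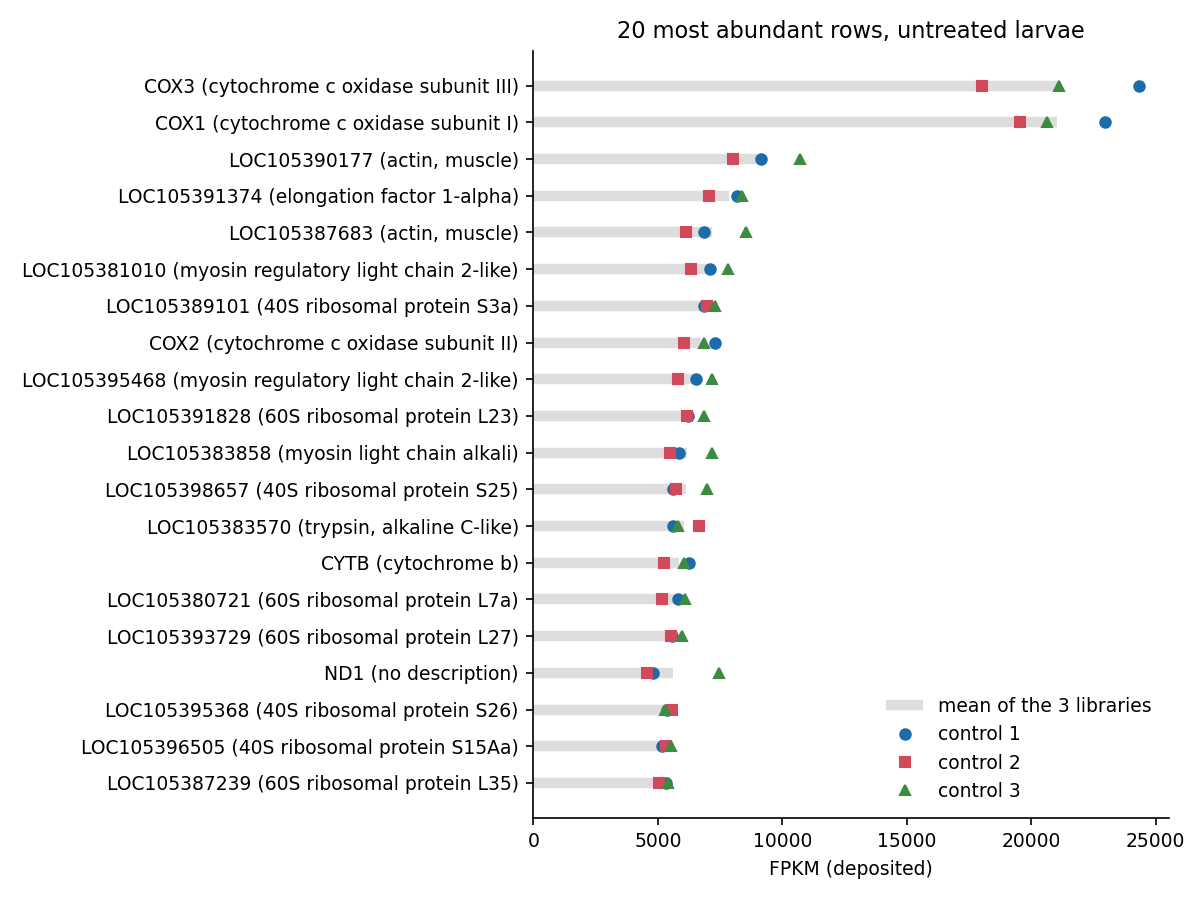
FPKM as deposited (x axis, linear) of the 20 rows with the highest mean over the 3 control libraries, with a grey bar at the mean and 1 symbol per library. COX3 and COX1 stand apart at 18012 to 24309, and no other row exceeds 10709.

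The nuclear genes that followed were those of muscle and of protein synthesis. The muscle actin LOC105390177, the thin-filament protein, had an FPKM of 9125, 8002 and 10709, and a second muscle actin, LOC105387683, had 6853, 6135 and 8545. Elongation factor 1-alpha LOC105391374, which brings aminoacyl-tRNA to the ribosome, stood at 8179, 7061 and 8362. For these 3 genes control 2 was again lowest and control 3 highest. Among the 20, myosin regulatory light chain 2 stood on a pair of rows. LOC105381010 had 7098, 6321 and 7818 and LOC105395468 had 6524, 5826 and 7190. A further row of that description, LOC105383834, was lower. It had 1107, 1536 and 1827, lowest in control 1, and was chosen after its values were seen. The alkali light chain LOC105383858 was at 5863, 5502 and 7183. The 40S subunit protein S3a (LOC105389101) was the most abundant ribosomal message at 6863, 6972 and 7309, followed by the 60S protein L23 (LOC105391828) at 6208, 6169 and 6864. The only digestive enzyme among the 20 was the trypsin LOC105383570, described as alkaline C-like, at 5623, 6652 and 5823, where control 2 was highest.

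Among the 100 most abundant rows 66 were ribosomal, 8 muscle, 5 mitochondrially encoded and 4 trypsins. A further 2 had no description and 2 were uncharacterized. The uncharacterized gene LOC105398487 had an FPKM of 3201, 5207 and 4994, and the undescribed row with the symbol ND1 had 4800, 4563 and 7444. Near-identical copies limit single values here. Both rows of the 40S protein S23, LOC105398643 at 4253, 3764 and 4540 and LOC105387016 at 4212, 3734 and 4507, carried nearly the same counts, and 6 pairs of rows with the same description and at least 100 counts agreed within 2% in every control, so that reads of such copies may have been shared between them.

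For the whole table, rows were sorted by their deposited description into 48 function classes. These hold 4738 rows, beside 7460 rows with another description, 4773 uncharacterized rows, 4892 rows without a description and 83 rows that join genes of different classes. The share of counts weighs a long message more than a short one, and the share of the FPKM sum does not. With totals of this size the counting error of a share is small: no 95% Wilson interval of a class share in a library reached more than 0.0114 percentage points from it.

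**Figure D2:**
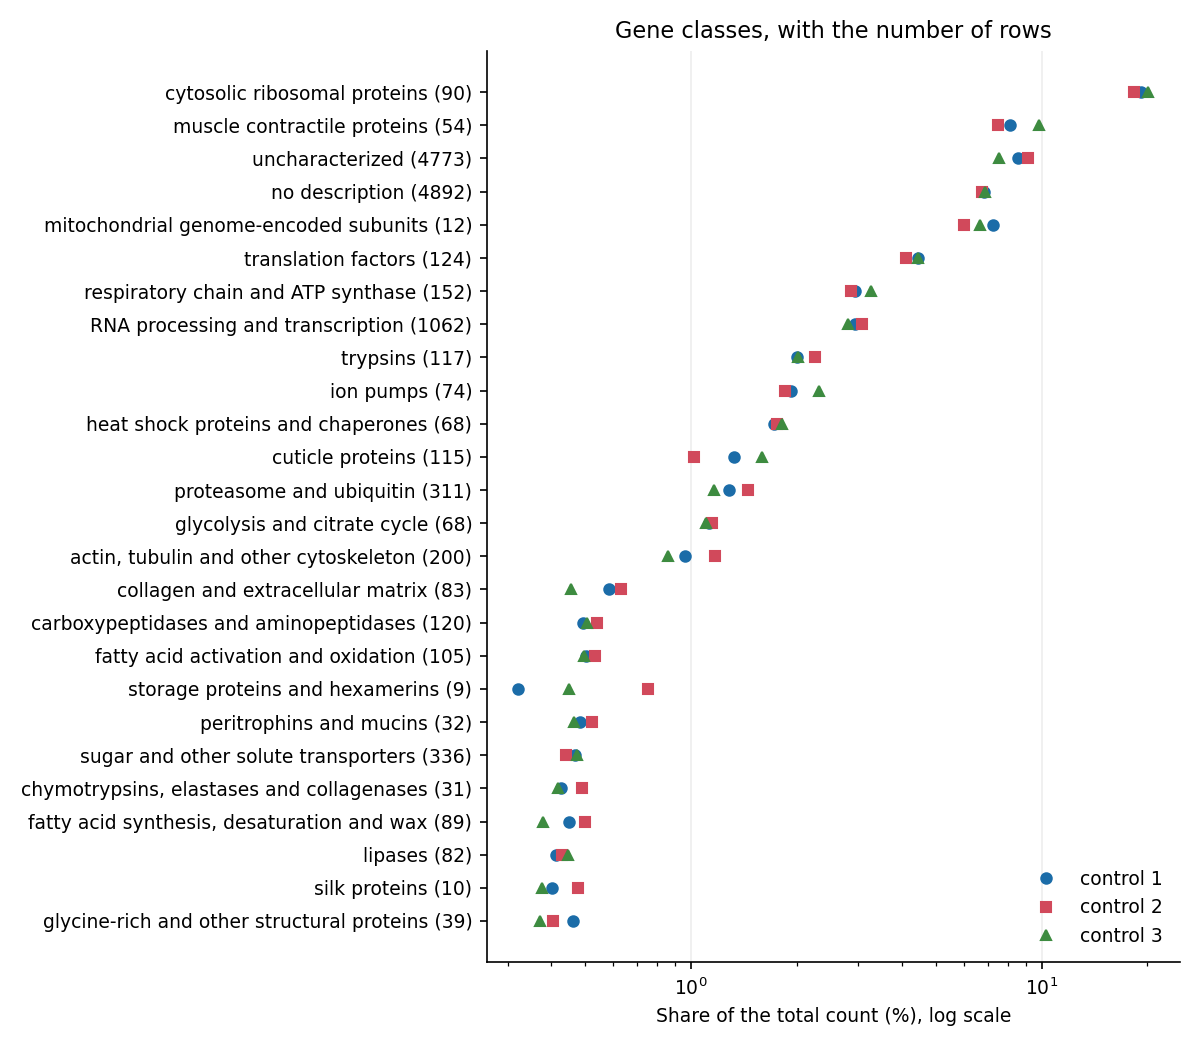
Percent of the count total (x axis, log scale) held by the larger gene classes in the 3 control libraries, with 1 symbol per library and the number of rows of each class in parentheses. Ribosomal proteins hold 18.3 to 20.1% and muscle proteins 7.49 to 9.80%, and the libraries lie farthest apart for the storage proteins, at 0.322 to 0.755%.

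Protein synthesis was the largest described function. The 90 rows of cytosolic ribosomal proteins held 19.1%, 18.3% and 20.1% of the counts of controls 1, 2 and 3 (19.2% ± 0.904, SD, n = 3) and 32.8% of the FPKM sum. Their median FPKM was 3282, and 79 of them exceeded 1000. The exceptions at the low end included a second row of the 60S protein L22 (LOC105382245), which stood at 3.30, 3.92 and 3.74. The 124 rows of translation factors and tRNA ligases added 4.45%, 4.11% and 4.43%, and within them the translationally controlled tumor protein homolog LOC105389397, a small conserved protein bound to the translation machinery, reached 3123, 2863 and 2593. The 78 mitochondrial ribosomal proteins were far lower, at 0.337% ± 0.0104 (SD, n = 3), with a median FPKM of 49.1.

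Energy metabolism took 10.8% ± 0.701 (SD, n = 3) of counts. The 12 rows of the mitochondrial genome held 7.28%, 5.99% and 6.66%. Levels within that genome ran over a wide range. The joined row of ATP8 and ATP6, which encode proton channel subunits of ATP synthase, had 3553, 3647 and 3912 FPKM. ND1, a subunit of complex I, had 964, 750 and 1051 on its described row, ND4 had 502, 335 and 544, and ND2 had 25.5, 8.07 and 20.4. ND6 was lowest, with 4, 0 and 17 counts. The 152 nuclear rows of the respiratory chain and ATP synthase held 2.94%, 2.86% and 3.25%. The ADP,ATP carrier LOC105398808, which exports ATP from the mitochondrion, led them at 3232, 2794 and 3829, followed by the ATP synthase lipid-binding protein LOC105382445, a rotor subunit, at 2832, 2907 and 3218. Arginine kinase LOC105390215, which buffers ATP in invertebrate muscle as creatine kinase does in vertebrates, stood at 2301, 2248 and 2087.

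Muscle contractile proteins, 54 rows, held 8.14%, 7.49% and 9.80% of counts (8.47% ± 1.19, SD, n = 3) and 6.13% of the FPKM sum. Beside actin and the myosin light chains, troponin T (LOC105391471), which ties the troponin complex to tropomyosin, had an FPKM of 3623, 3265 and 4341, and the inhibitory subunit troponin I (LOC105390008) had 3676, 3425 and 4091. Muscle myosin heavy chain (LOC105388810), the motor itself, had 1807, 1677 and 2396. The calcium pump of the sarcoplasmic reticulum (LOC105380420), which ends a contraction, had 1266, 1204 and 1663. Troponin T, troponin I, myosin heavy chain and the calcium pump were each lowest in control 2 and highest in control 3. The class share had the same order. In the rest of the cytoskeleton, 200 rows with 0.998% ± 0.158 of counts (SD, n = 3), the order was the reverse: the cofilin homolog LOC105393436, an actin-severing factor, stood at 1007, 1257 and 935, and tubulin beta-1 (LOC105380966) at 910, 1185 and 712.

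Digestive enzymes held 3.64% ± 0.208 of counts (SD, n = 3), most of it in trypsins. The 117 trypsin rows held 2.01%, 2.26% and 2.02%, but the signal lay in few of them. A total of 59 were under an FPKM of 1, 18 had no count in any control, and 7 exceeded 1000. After LOC105383570, the alkaline B-like trypsin LOC105392199 had 3726, 4221 and 3664. Trypsins, which cut after lysine and arginine, thus outranked the other proteases: the collagenase-like gene LOC105391005 had 1599, 1825 and 1475, chymotrypsin-2-like LOC105380855, which cuts after aromatic residues, had 608, 883 and 712, and the carboxypeptidase B-like gene LOC105385738, which removes a basic residue from the end that trypsin leaves, had 313, 361 and 381.

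Of the lipases, the lipoprotein lipase-like gene LOC105389107 reached 1878, 1798 and 2119, while the pancreatic-type lipase LOC105387533 had 158, 219 and 156. The arylsulfatase B-like gene LOC105390597 had 1477, 1814 and 1647. Glucosinolate sulfatases, the enzymes by which this moth disarms the mustard oil precursors of its hosts, belong to the arylsulfatase family, but the description does not say whether this gene is one of them. Carbohydrate-digesting enzymes were low, with 0.0804% ± 0.00378 of counts (SD, n = 3) over 67 rows. The highest of them, a joined row described as myrosinase 1-like (LOC105388378 and LOC105388391), had 24.7, 19.99 and 38.4.

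The peritrophic matrix, the chitin and protein sheath between food and midgut cells, was represented by 32 rows of peritrophins and mucins with 0.481%, 0.521% and 0.466% of counts. Peritrophin-1 (LOC105386546), a chitin-binding protein of the sheath, had an FPKM of 625, 433 and 527, and a second peritrophin-1-like gene (LOC105381868) had 426, 416 and 458. The mucin-2-like gene LOC105381635, chosen after its values were seen, had 17.3, 24.1 and 24.95, so that its level lay well under those of both peritrophins. Of the 25 members of this class with a mean FPKM of at least 1, 1 spanned 2-fold between controls, beside 13.6% of all 15921 rows at that level. The proteolipid of the V-type proton ATPase (LOC105390396), the pump that drives ion transport and alkalinity in the caterpillar midgut, stood at 1234, 1207 and 1413.

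Cuticle proteins, 115 rows, held 1.33%, 1.02% and 1.60% of counts (1.31% ± 0.289, SD, n = 3). The larval cuticle protein LOC105393786, of the LCP-17 type, led with 2122, 912 and 2874 FPKM, and the cuticle protein 16.5 gene LOC105395015 followed with 1226, 1839 and 863. No row was described as a chitin synthase. Of the 3 rows that carry the gene ontology term for chitin synthase activity, LOC105393455 had 12.9, 16.5 and 20.3, LOC105394984 had 12.5, 15.6 and 20.4, and the joined row of LOC105380296 and LOC105380298 had 20.97, 19.8 and 14.1. Endochitinase LOC105389028, which degrades old cuticle, had 77.8, 126 and 66.1.

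Fat body, silk gland and defence genes each took under 1% of counts. The 9 rows of storage proteins held 0.322%, 0.755% and 0.448%, almost all of it in a pair of arylphorins, hexameric storage proteins rich in aromatic residues that the fat body secretes: LOC105388114 had 819, 1895 and 1083 FPKM and LOC105388112 had 559, 1340 and 838. The 10 silk rows held 0.402%, 0.478% and 0.376%. Fibroin light chain (LOC105384519), at 589, 657 and 602, and a fibroin heavy chain row (LOC105392941), at 542, 587 and 643, stood at like levels. Light and heavy chain pair in the silk filament. Further heavy chain rows, chosen after their values were seen, were less even. LOC105385487 had 456, 606 and 218 and LOC105396634 had 101, 140 and 44.8, both highest in control 2. Among 84 cytochrome P450 rows, 0.238% ± 0.0179 of counts (SD, n = 3), 40 were under an FPKM of 1. The highest were P450 4g15 (LOC105391053), at 326, 304 and 315, whose family makes cuticular hydrocarbons in Drosophila, and P450 9e2 (LOC105383604) at 260, 232 and 261. The glutathione S-transferase LOC105395140, which conjugates toxins, had 554, 555 and 813.

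Chemosensory genes were mostly at low levels, with exceptions. Of the 106 rows 72 were under an FPKM of 1. Among them 17 of the 47 odorant receptor rows had no count in any control and the highest had a mean of 5.40, and 5 of 12 gustatory receptor rows had none. Most of the 16 odorant-binding protein rows were low as well, with a median FPKM of 0.353 and 7 at 1 or more. Odorant-binding protein 56d (LOC105379994), a soluble carrier, was an exception at 702, 1467 and 637, and the ejaculatory bulb-specific protein 3-like gene LOC105393172, a chemosensory protein, had 169, 92.7 and 148. Chorion genes, which build the egg shell in the adult ovary, had a mean FPKM of at most 0.503 over 10 rows. Germ line genes were present at a low level: aubergine-like LOC105397264, a piRNA pathway protein, had 42.97, 45.8 and 34.98, and the germ cell helicase vasa (LOC105398159) had 36.7, 32.5 and 29.6.

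The label of whole larvae was checked against tissue markers. Summed over its marker rows, midgut stood at 22923, 25477 and 23064 FPKM (135 rows), muscle at 11082, 10150 and 13073 (19 rows), epidermis at 7727, 7146 and 9091 (24 rows), fat body at 1520, 3481 and 2070 (18 rows) and silk gland at 1836, 2189 and 1652 (6 rows). The fat body rows include LOC105380491 (mean 7.24) and LOC105398591 (mean 3.22). These are a phosphatase and a kinase of pyruvate dehydrogenase that matched the word transferrin by their descriptions only. Nervous system markers were much lower, at 125, 162 and 117 (17 rows), led by the neuronal RNA-binding protein ELAV-like 2 (LOC105383273) at 62.6, 82.6 and 57.1. Haemocyte markers stood at 39.98, 65.5 and 25.4 (5 rows), of which the prophenoloxidase LOC105386870, the zymogen of the melanin enzyme, gave 28.2, 45.5 and 18.8. Testis markers summed to 46.8, 32.3 and 37.1 over 47 rows, none above 4.76 on average, and markers of other stages to 22.4, 19.1 and 20.7 over 23 rows. The stage set was rows named chorion, vitellogenin, pheromone-binding protein or opsin, and was led by opsin-1 (LOC105388327) at 10.9, 10.4 and 8.75. Whether the opsins mark a stage other than the larva was not tested.

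Libraries of the same group differed. For this, counts were scaled to CPM with trimmed mean of M-values (TMM) factors, 0.1 CPM was added, and the SD of the log2 values over the 3 controls and the ratio of the highest to the lowest were taken for the 15921 rows with a mean FPKM of at least 1. The median SD was 0.24, and the biological coefficient of variation (BCV, the typical relative spread between libraries beyond counting error) was 27.7%. In all 2168 rows, 13.6%, spanned at least 2-fold between controls. In the DMNT libraries, measured on the same rows, the median SD was 0.26, the BCV 27.8%, and 2449 rows, 15.4%, spanned 2-fold. Controls 2 and 3 were farthest apart, with 1486 rows past 2-fold between them, against 925 for controls 1 and 2 and 856 for controls 1 and 3. Spread depended on level: 8.82% of rows with an FPKM of at least 100 spanned 2-fold, 8.54% of those from 10 to 100, and 16.1% of those from 1 to 10.

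**Figure D3:**
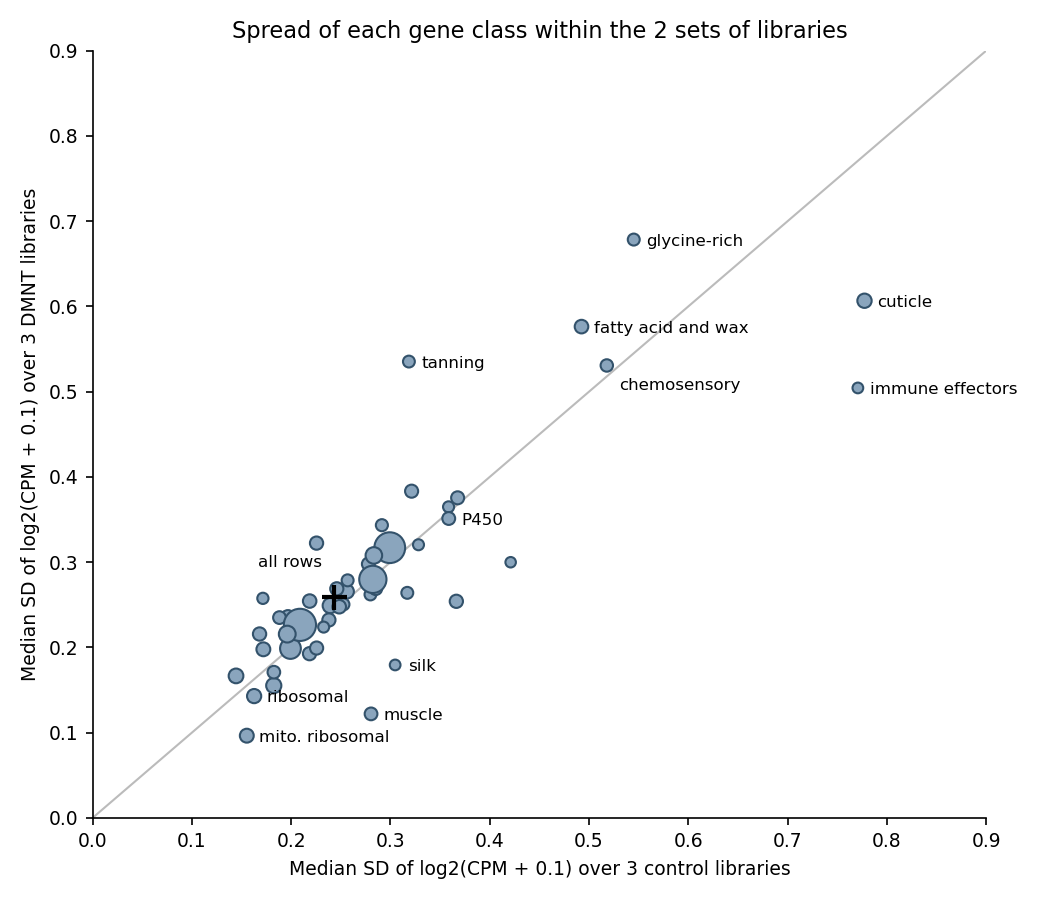
Median over the rows of each gene class of the SD of log2(CPM + 0.1) between the 3 control libraries (x axis) and between the 3 DMNT libraries (y axis), with 1 circle per class, larger for more rows, a cross for all rows and a line where both are equal. Cuticle proteins and immune effectors lie farthest to the right at 0.78 and 0.77, and muscle proteins lie below the line at 0.28 and 0.12.

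Translation factors and ribosomal proteins were among the least variable classes. The median SD over controls was 0.14 for 113 translation factors, 0.16 for 78 mitochondrial ribosomal proteins and 0.16 for 90 cytosolic ribosomal proteins, and 1, 2 and 1 of their rows, respectively, spanned 2-fold. Trypsins had a median SD of 0.17 over the 58 tested, with 6 of them past 2-fold (10.3%, beside 13.6% of all rows), while chymotrypsins and carboxypeptidases stood near the median of all rows, at 0.25 and 0.26. Lipases stood near the background share (9 of 54, 16.7%), with a median SD of 0.24. Among the classes above it were rows without a description (898 of 4456, 20.2%), carbohydrate-digesting enzymes (13 of 49, 26.5%) and cytochrome P450s (13 of 44, 29.5%). So were chitinases (4 of 12, 33.3%), fatty acid synthesis, desaturation and wax genes (29 of 67, 43.3%) and chemosensory genes (16 of 34, 47.1%). The share was larger still for glycine-rich structural proteins (13 of 25, 52.0%), cecropins, lysozymes and other immune effectors (5 of 8, 62.5%) and cuticle proteins (67 of 95, 70.5%).

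The cuticle proteins varied together. Of the 95 tested, 59 spanned 2-fold with the highest value in control 3 (5.63% of all rows tested did) and 62 with the lowest in control 2 (5.92%). Both held for 57 of the 95, beside 4.15% of all rows tested. Among rows past 2-fold alone, this was 57 of 67 cuticle rows beside 660 of all 2168. The opposite order, highest in control 2 and lowest in control 3, was held by 3 of the 95, beside 2.84% of all rows tested. The ratio of highest to lowest was 2.00 for the row just inside the limit and 1.99 for the one just outside, and reached 10.1. Pupal cuticle proteins all shared one order where they spanned 2-fold, 14 of 14, out of 15 tested, and so did 5 of 5 endocuticle structural glycoproteins out of 6 tested. Cuticle proteins of other names did so in 29 of 35, out of 54 tested. Larval cuticle proteins were mixed, with 9 of 13 in that order and all 3 of the reversed rows, out of 20 tested.

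**Figure D4:**
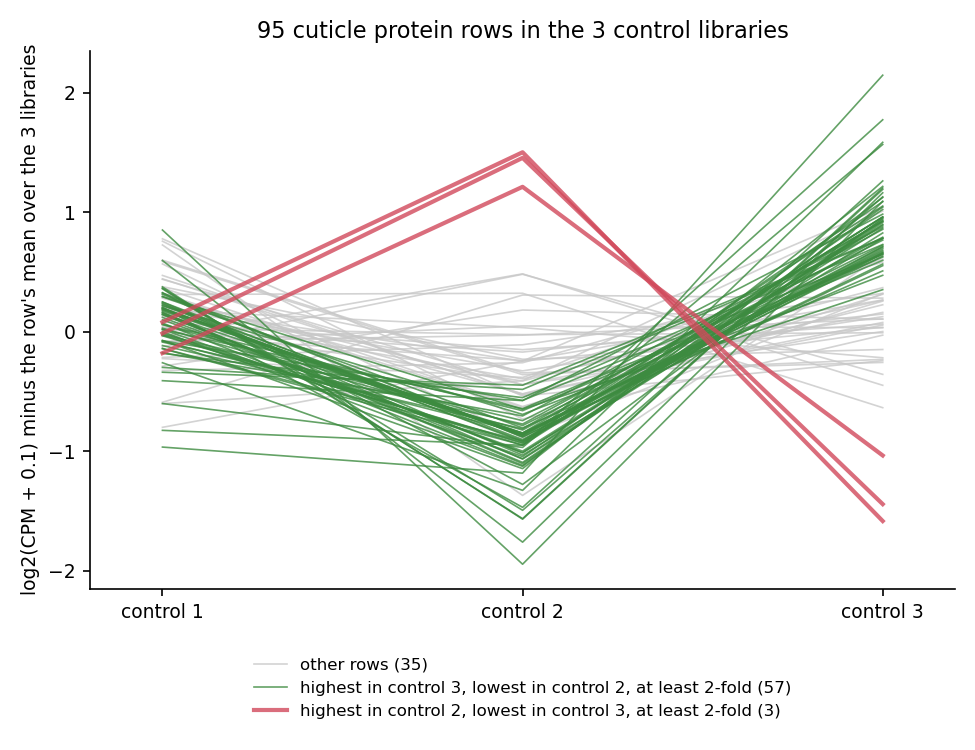
Log2(CPM + 0.1) minus the row's mean over the 3 control libraries (y axis) in each library (x axis), with 1 line for each of the 95 cuticle protein rows with a mean FPKM of at least 1. The 57 green rows span 2-fold with the lowest value in control 2 and the highest in control 3, and the 3 red rows span 2-fold in the opposite order.

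The largest span among cuticle genes was that of the pupal cuticle protein C1B-like gene LOC105395365, at an FPKM of 7.71, 6.89 and 63.7, where control 3 stood alone. This gene and the others in this paragraph were chosen after their values were seen, except LOC105393786 above. The larval/pupal rigid cuticle protein LOC105389380 had 47.6, 13.6 and 75.9, and the cuticle protein 12.5-like gene LOC105395011 had 43.4, 11.6 and 71.6. In both, control 2 stood lowest. The reversed rows were the larval cuticle proteins LOC105381469, at 587, 1698 and 204, LOC105381422, at 522, 1431 and 270, and LOC105381413, at 296, 828 and 87.3. Each was several times higher in control 2 than in control 3, with control 1 between them, while LOC105393786, of the same LCP-17 name as LOC105381413, ran the other way at 2122, 912 and 2874.

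The 3 rows reversed past 2-fold sat in a run with rows of the more common order. In the numbering of the gene models they belong to a run of 15 consecutive rows, 13 of them cuticle proteins. All 13 of the run's symbols that occur in a newer annotation (assembly ilPluXylo3.1) lie on 1 chromosome there, within a stretch of 22 genes. In this run, whose genes other than LOC105381362 were chosen after their values were seen, the LCP-22 gene LOC105381362 had 818, 389 and 1307 and the LCP-30 genes LOC105381372 and LOC105381389 had 122, 67.9 and 226 and 301, 169 and 562. Another LCP-30 gene, LOC105381400, was low and had the reversed order within 2-fold, at 2.81, 2.95 and 1.34. The LCP-17 gene LOC105381407, next to LOC105381413, had 629, 295 and 974. Then came the 3 reversed genes, with the endocuticle glycoproteins LOC105381430 (334, 194 and 496) and LOC105381440 (239, 121 and 308) and the cuticle protein 2-like gene LOC105381460 (11.04, 5.90 and 10.3) between the second and the third of them. The last gene of the run, LOC105381479, varied little, at 442, 398 and 506. Neighbours with a like description thus had opposite orders of the same libraries.

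**Figure D5:**
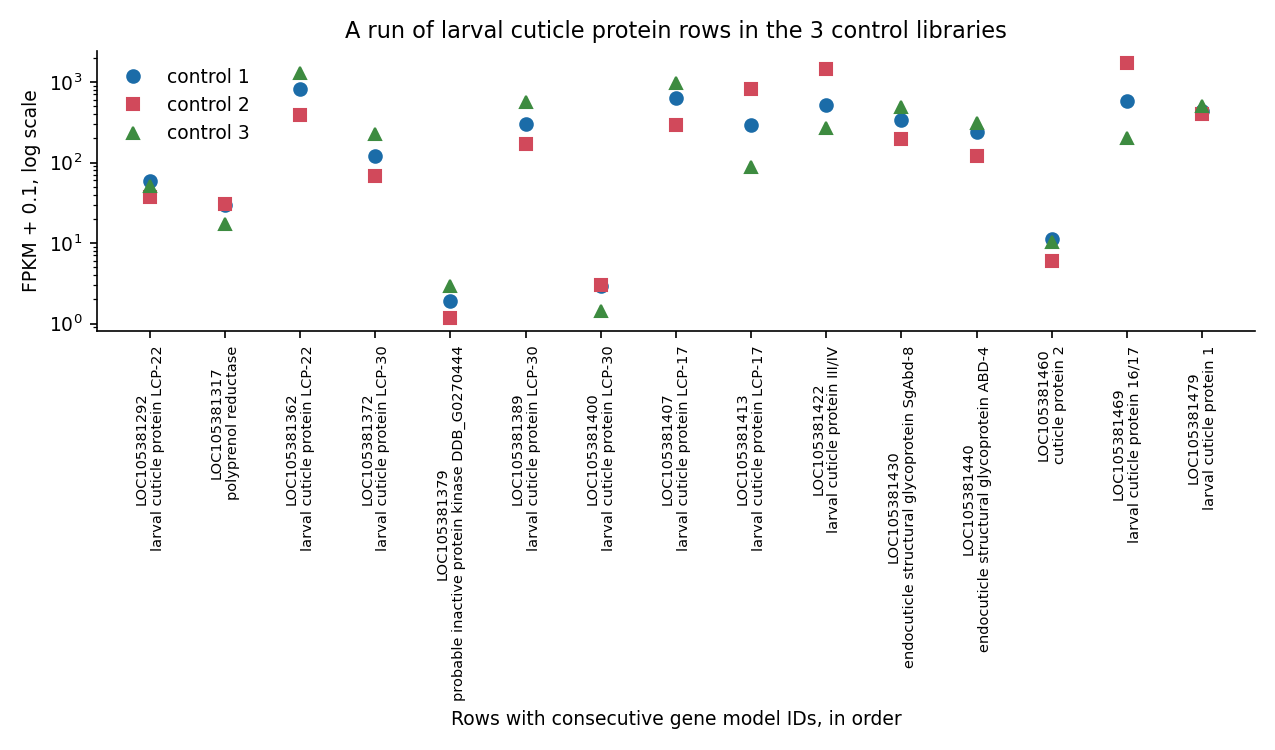
FPKM + 0.1 in the 3 control libraries (y axis, log scale) of 15 rows with consecutive gene model IDs in that order (x axis), 13 of them cuticle proteins, with 1 symbol per library. LOC105381413, LOC105381422 and LOC105381469 are highest in control 2 at 828 to 1698, and most of the other cuticle rows are lowest there.

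Some genes that act around a moult also differed between the libraries. Those of this paragraph, other than laccase and the tyrosine enzyme, were chosen after their values were seen. The nuclear receptor HR3 (LOC105394379), induced by ecdysone, had an FPKM of 35.5, 78.3 and 39.2, and the ecdysone-inducible receptor E75 (LOC105384833) had 13.3, 29.1 and 7.57. Both were highest in control 2 and spanned over 2-fold. Most of their class past 2-fold had another order: of 10 such rows, 7 were highest in control 3 and 3 in control 2. Among all 2168 rows past 2-fold these numbers were 896 and 714. FTZ-F1 (LOC105381630), which in Drosophila follows HR3 as the hormone declines, had 63.7, 39.4 and 49.5, lowest in control 2. It spanned 1.69-fold in scaled CPM. Probable chitinase 3 was listed on 3 rows. The most abundant, LOC105385326, had 43.3, 50.3 and 39.5 and spanned 1.14-fold in scaled CPM. The lower ones, LOC105382027 at 4.51, 17.8 and 5.85 and LOC105394199 at 1.44, 5.96 and 1.84, spanned over 2-fold with the highest value in control 2. Kr-h1 (LOC105392212), the early target of juvenile hormone, had 18.5, 28.8 and 17.01 and spanned 1.51-fold in scaled CPM.

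Tanning genes had no common order. Some were lowest in control 2 and highest in control 3, like most cuticle proteins past 2-fold. Tyrosine 3-monooxygenase (LOC105380496), which makes dopa for pigment and cross-links, had 152, 78.1 and 218. Laccase-1 (LOC105383933), an oxidase of catechols, had 158, 139 and 303, and dopamine N-acetyltransferase (LOC105388861, chosen after its values were seen), which makes a precursor for clear sclerotization, had 3.90, 1.39 and 7.41. The prophenoloxidases ran the other way, LOC105386870 at 28.2, 45.5 and 18.8 and LOC105394051 (chosen after its values were seen) at 10.1, 17.65 and 5.32. The neuropeptide eclosion hormone (LOC105390651), a trigger of ecdysis, had 18.2, 13.3 and 24.4, and the takeout-like gene LOC105381106, of the family of juvenile hormone-binding proteins, had 16.9, 7.88 and 33.7, both also chosen after their values were seen. Over the 51 rows of ecdysone and juvenile hormone genes tested, 10 spanned 2-fold (19.6%), and over 23 melanization and tanning rows 5 did (21.7%), beside 13.6% of all rows. The juvenile hormone esterase LOC105397896, at 155, 143 and 126, and the juvenile hormone-binding protein LOC105397396, at 114, 149 and 106, which were the most abundant of the hormone class, spanned less than 2-fold.

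Several storage protein and lipid genes were highest in control 2. Both arylphorins were among them, as given above, and 3 of the 4 storage protein rows tested spanned 2-fold, beside 13.6% of all rows. Apolipophorin (LOC105380513, chosen after its values were seen), the lipid carrier of the haemolymph, had 25.6, 78.2 and 28.6, and a fatty acid synthase (LOC105386888, chosen after its values were seen) had 45.4, 110 and 31.3. Control 2 stood apart in both. This synthase was the only 1 of 5 fatty acid synthase rows tested that spanned 2-fold, and 2 of the 5 were highest in control 3. Acetyl-CoA carboxylase (LOC105396601), the enzyme before fatty acid synthase, did not follow, at 537, 556 and 644, and transferrin (LOC105393670), an iron carrier of the haemolymph, had 26.6, 30.9 and 33.2. The delta-11 desaturase LOC105392062, which places a double bond in fatty acyl chains, had 189, 151 and 71.5, lowest in control 3. Of the enzymes that lengthen or reduce fatty acids for wax, 14 of 25 elongases and 8 of 19 fatty acyl-CoA reductases tested spanned 2-fold, beside 13.6% of all rows. Of the 25 elongases 4 spanned 2-fold with the highest value in control 3 and the lowest in control 2, and 5 in the reverse order. Of the 19 reductases 2 and 5 did. Over all rows tested these orders were held by 4.15% and 2.84%.

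Chemosensory proteins of the ejaculatory bulb-specific and A10 types often had the order of the cuticle proteins. Of 21 rows tested 12 spanned 2-fold, beside 13.6% of all rows, and 10 of the 21 did so with the highest value in control 3 and the lowest in control 2, beside 4.15%. Odorant-binding protein 56d, as given above, was highest in control 2. Immune effectors were low but uneven. The lysozyme LOC105382813, which cuts bacterial cell walls, had 31.3, 49.2 and 53.0, and the cecropin LOC105394859, an antibacterial peptide, had 6.64, 15.7 and 37.2, both lowest in control 1. A second cecropin, LOC105394860, and a second lysozyme, LOC105397605, both chosen after their values were seen, were highest in control 1, at 26.5, 13.3 and 9.22 and at 5.94, 3.98 and 3.71. With 8 rows tested these are few genes, and 5 spanned 2-fold.

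Below 2-fold, whole classes still shared an order of the libraries. Of 90 cytosolic ribosomal protein rows 85 were highest in control 3 (94.4%, beside 35.9% of all rows) and 75 lowest in control 2 (83.3%, beside 36.2%), although only 1 spanned 2-fold. Of 137 respiratory rows 96 were highest in control 3 and 86 lowest in control 2, and of 42 muscle rows 28 and 24. All 11 mitochondrially encoded rows tested were lowest in control 2. Proteasome and ubiquitin genes, which mark and break down proteins, had the other order, with 145 of 247 highest in control 2 and 143 lowest in control 3, beside 5817 and 5794 of all 15921 rows. The summed markers of muscle were likewise lowest in control 2 and highest in control 3, and those of fat body highest in control 2, as given above, and their part in these orders was not tested. The orders depend in part on the scaling. With the total count in place of TMM the median of all rows moved to 0.08 above the mean log2 value in control 2 and to -0.08 in control 3. The shares of all rows highest or lowest in a library move with it and are not given for this scaling. The class counts that follow therefore have no background beside them, and a change in them is not read as a trait of the class. Of the ribosomal rows 67 were highest in control 3 and 61 lowest in control 2, while the proteasome counts went to 175 and 183. For the cuticle 65 of 95 rows were then highest in control 3 and 76 lowest in control 2, against 67 and 80 with TMM.

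A further block of genes of unknown function shared its lowest library. The 8 uncharacterized genes from LOC105391585 to LOC105391600 in a run of consecutive gene models, all of which lie within a stretch of 11 genes on 1 chromosome in the newer annotation, were each lowest in control 3. They were chosen after their values were seen, except LOC105391591, the most abundant, which had an FPKM of 2600, 3554 and 1537. LOC105391589 had 1748, 2400 and 854, LOC105391598 had 1123, 1605 and 574, and LOC105391599 had 1225, 1409 and 474. In all 4 of these control 2 was highest. The files give no function for them.

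Of the 794 rows with an FPKM of at least 100, 70 spanned 2-fold (8.82%). They included 25 of the 35 cuticle protein rows at this level, 18 of the 98 uncharacterized rows and 8 of the 54 without a description. The thioredoxin-2-like gene LOC105383580 was an exception to the orders above, at 319, 57.2 and 62.9, high in control 1 alone. It was chosen after its values were seen, and so were the steadiest genes of this level other than the kinase and LOC105388715. The 14-3-3 protein zeta (LOC105387118), an adaptor of phosphorylated proteins, had 1094, 1142 and 1000, the ferritin subunit LOC105380710, an iron store, had 101, 107 and 96.6, and the ubiquitin-conjugating enzyme LOC105395929 had 277, 283 and 257. Nucleoside diphosphate kinase (LOC105386135), which balances the nucleotide pools, had 3921, 4004 and 3731. Their SD on the log2 scale of scaled CPM was 0.03 or less. A second thioredoxin-2-like gene, LOC105388715, had 451, 461 and 434, close to level in all 3 libraries. Another ferritin subunit gene, LOC105398714, chosen after its values were seen, was less even, at 158, 253 and 117.

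The rows with the largest SD were of another kind, present in some controls and at 0 counts in others. Among rows with a mean FPKM of at least 1, 101 had no count in at least 1 control, and 59 of these had at least 100 counts in another. Together the 59 held 0.0295% of control counts. The row LOC105390670 had 0, 0 and 1997 counts, LOC105395513 had 2433, 0 and 1713, and LOC105394208 had 2038, 0 and 1550. Of the 59, 49 had no description and 48 held assembled transcripts only. Some of the undescribed rows still carried a gene symbol, among them those just named. Among described genes, laminin subunit alpha-1 (LOC105380163), of the basement membrane, had 8, 1936 and 0 counts, the odorant-binding protein A10 (LOC105393160) had 537, 0 and 960, and the mitochondrial 39S protein L35 (LOC105392838) had 574, 440 and 0. In 26 rows with a 0 the same symbol stood on another row as well, and in 17 of those the sum over the symbol's rows still spanned 2-fold. In the DMNT libraries 25 of the 59 were likewise at 0 in one library and at 100 counts or more in another, and 22 had counts in every DMNT library. Whether these zeros come from the larvae or from the assembly and counting of transcripts was not tested.

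Other described rows varied without a 0. The HN1-like gene LOC105391958 had 9110, 646 and 481 counts and toll-like receptor 3 (LOC105390974), a receptor of immune signalling by its name, had 1316, 104 and 92, both high in control 1 alone. The elongase LOC105382119, which lengthens fatty acids, had 155, 26 and 491. Among rows without a description LOC105397722 had 1641, 2032 and 16 counts and LOC105381381 had 114, 3366 and 29.

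The classes that varied in the controls were largely those that varied in the DMNT libraries, which share no sample with them. Over the 50 classes with at least 5 rows tested the median SD in one group had a Spearman rho of 0.81 with that in the other, and over 15921 rows the rho of the single SDs was 0.40, both given as descriptions, since low rows vary more in either group. Cuticle proteins had a median SD of 0.61 in the DMNT libraries and 66 of 95 rows past 2-fold there. Muscle proteins differed between the groups of libraries, with 0.28 in controls and 0.12 in DMNT, and the storage proteins had 0.59 and 1.10 over 4 rows. These differences in spread were not tested.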

How the data were processed

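RNA was from whole second-instar larvae, and libraries from poly(A) RNA with dUTP marking of the second strand. Per the methods and the submitters' processing notes, the authors trimmed with cutadapt and mapped with HISAT to an NCBI genome of P. xylostella, then used StringTie for assembly and quantification and edgeR for their comparison. They deposited raw counts per gene, not normalized, and FPKM scaled by exon length and mapped reads. Neither the program behind the deposited counts nor its use of strand is given in the sources used here. Reads of overlapping and antisense genes may therefore be mixed. All 12 value columns could be assigned to samples.

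Control libraries were described, and no group was tested against another. edgeR 4.0.16 in R 4.3.3 gave TMM factors and dispersion, and pandas 2.3.3, numpy 2.4.6 and scipy 1.17.1 the rest. The SD and range of log2(CPM + 0.1) were taken for rows with a mean control FPKM of at least 1. The dispersion step was checked on simulated counts. Classes were read from descriptions by ordered word patterns, first match first, and the patterns were refined after the table was seen. Of 17515 LOC symbols, 10548 occur in the ilPluXylo3.1 annotation, used only for neighbours. The members and lists were chosen with earlier results of these data known. Genes were named by a rule: the 20 rows of highest mean FPKM, the 2 highest of each class, the highest marker rows of each tissue (at most 2), the 20 rows with a symbol and largest SD, and the 15 described rows with the largest SD. Genes outside it are marked as chosen after their values were seen. The same holds for the ND1, ND2, ND4, ND6 and ATP8 rows, ribosomal S23 and L22, myosin heavy chain, transferrin and the rows with the chitin synthase term. Of the rows, 2191 had no symbol and 4417 shared one with another row, and all were kept apart.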

Additional observations from a re-analysis of the deposited data

How the results depend on the processing

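No paired analysis was possible because the results are descriptions of 1 group and come from no test. Of the values under alternatives, 104 moved by less than a set limit and 46 moved further. For shares the limit was the SD between libraries, and for counts of rows a change of 1.5 times. For the BCV and the class spreads it was the SD of the values with 1 library left out. Those values are themselves among the ones judged. Ranked by CPM the top 10 rows held 13.6% of counts. As a share of the FPKM sum, ribosomal proteins held 32.8%, muscle 6.13%, trypsins 2.63%, cuticle 2.09%, storage proteins 0.258% and rows without a description 7.38%. Without the top 10 rows the ribosomal share was 20.5%, muscle 5.47%, mitochondrially encoded 1.34%, trypsins 2.37%, uncharacterized 9.49% and no description 7.72%. Without a filter the BCV was 32.8%, and 4758 of 21270 rows spanned 2-fold. With 1 CPM added 1139 did, and with an FPKM minimum of 5, 865 of the 8919 rows that entered. The median SD of all rows was 0.20 with 1 CPM added. Ribosomal proteins had a median SD of 0.092 with total-count scaling and 0.092 on FPKM, trypsins 0.15 with 1 CPM added, and P450s 0.42 with total count, 0.29 with 1 CPM added and 0.42 on FPKM.

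Leaving out each library in turn gave a top 10 share of 11.2 to 12.1%, and shares of 18.7 to 19.6% for ribosomal, 7.81 to 8.97% for muscle, 6.33 to 6.97% for mitochondrially encoded, 2.02 to 2.14% for trypsins, 1.17 to 1.46% for cuticle, 0.385 to 0.601% for storage, 8.06 to 8.83% for uncharacterized and 6.80 to 6.87% for undescribed rows. Detected rows were 18855 to 18911 and the BCV 24.9 to 31.03%. Rows spanning 2-fold were 1439 without control 1, 811 without control 2 and 903 without control 3, and a range over fewer libraries is narrower by construction. Median SDs ran from 0.17 to 0.24 for all rows, 0.10 to 0.21 for ribosomal, 0.087 to 0.18 for mitochondrial ribosomal, 0.13 to 0.15 for trypsins, 0.16 to 0.33 for muscle, 0.26 to 0.32 for P450s, 0.26 to 0.60 for chemosensory, 0.27 to 0.58 for fatty acid synthesis, 0.30 to 0.69 for glycine-rich, 0.47 to 1.07 for cuticle and 0.27 to 1.03 for immune effectors. Summing rows by symbol, leaving out rows with a 0 and upper-quartile scaling of the BCV were added after seeing the data. With 3 libraries the SD of a single row is imprecise.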
